A study of Mus musculus with 3 samples.

Results

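The cell cycle genes described here are 39 genes, 16 of DNA replication (S phase) and 23 of the G2 phase and mitosis (G2/M), picked by symbol from the 31053 genes of a single-cell count matrix of mouse brain. Each symbol matched 1 row of the matrix, so all 39 were measured. The samples were brain tissue of mice aged 10 weeks of the strain that the labels spell C56BL6 and the study's methods C57BL/6, in 3 conditions, with 1 library each and no replicate library: control, Ischemic Stroke (IS) and Hemorrhagic Stroke (HS). The study's methods name 8 mice per condition, ischemia made by occlusion of the middle cerebral artery and hemorrhage by injected collagenase. The deposited matrix holds the 3 libraries together and tells them apart by a number from 1 to 3 after each cell barcode, which no source used here pairs with a condition. Values are therefore given for each numbered library, with no comparison between conditions and no test.

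A dividing cell copies its DNA in S phase and separates the copies in mitosis, and each step needs proteins that resting cells make little of. Before S phase the MCM helicase is loaded on DNA with the help of CDC6, and E2F factors, released from the retinoblastoma family by cyclin D and cyclin E kinases, switch on the genes of replication and of nucleotide supply. Later the B-MYB, FOXM1 and MuvB factors switch on the genes of mitosis, among them cyclins A and B, their partner CDK1, the Aurora and Polo kinases, the centromere proteins and the motors of the spindle. In the adult mouse brain the dividing cells best known are the progenitors of the subventricular zone, which give rise to neuroblasts of the olfactory bulb, and the oligodendrocyte precursors. Microglia, the resident macrophages of the brain, and T cells, lymphocytes that enter it, can divide after injury, whereas mature oligodendrocytes, which make myelin, are regarded as postmitotic.

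Promoters of a few members are shown first, with the short motifs that the factors named above are known to bind. RefSeq (build GRCm38.p6) gave a promoter for 33 of the 39 members, 13 of S phase and 20 of G2/M, and none was at hand for Aurkb, Ccna2, Ccne2, Gins2, Mcm4 and Tpx2. In the 250 bases before the start, on both strands, TTTGAA, the core of the element bound by MuvB, was found in 8 of 20 G2/M and 2 of 13 S members, against 16% of 32851 promoters. CCAAT, the box bound by NF-Y, was found in 17 of 20 G2/M and 8 of 13 S members, against 33.8% of all promoters. TTTCGCGC or TTTGGCGC, forms of the E2F site that can overlap each other, were found in 3 of 13 S and 1 of 20 G2/M members, against 0.654% of all promoters. A member was counted with a match in any of its promoters, 35 for the 33 members, whereas the percent is of single promoters. For the S members Cdc6 and Dut the RefSeq window lay inside the gene as annotated by GENCODE. So did the Uhrf1 window at chr17:56304063-56304312, which held the TTTCGCGC match of Uhrf1. The other Uhrf1 window held neither form of the E2F site. Other windows, such as that of Fen1 at chr19:10203922-10204171, lay inside the gene in part. The G2/M promoters below carry both TTTGAA and CCAAT, as 8 of 20 G2/M members, 1 of 13 S members and 5.55% of all promoters do. Capitals mark these motifs on either strand, and a match in letters is not a measured binding site.
Cdk1 (chr10:69352913-69353162, minus strand): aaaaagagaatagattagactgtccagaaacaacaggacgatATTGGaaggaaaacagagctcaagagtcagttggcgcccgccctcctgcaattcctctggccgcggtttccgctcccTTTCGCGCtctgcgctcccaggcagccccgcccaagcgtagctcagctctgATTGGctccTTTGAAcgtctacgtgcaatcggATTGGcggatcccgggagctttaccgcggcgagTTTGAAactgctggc
Ccnb2 (chr9:70421555-70421804, minus strand): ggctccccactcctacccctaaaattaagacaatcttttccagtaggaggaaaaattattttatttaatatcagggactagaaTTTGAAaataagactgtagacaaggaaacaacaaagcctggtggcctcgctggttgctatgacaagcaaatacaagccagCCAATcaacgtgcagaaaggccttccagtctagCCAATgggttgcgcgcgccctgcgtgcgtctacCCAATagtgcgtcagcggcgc
Top2a (chr11:99024190-99024439, minus strand): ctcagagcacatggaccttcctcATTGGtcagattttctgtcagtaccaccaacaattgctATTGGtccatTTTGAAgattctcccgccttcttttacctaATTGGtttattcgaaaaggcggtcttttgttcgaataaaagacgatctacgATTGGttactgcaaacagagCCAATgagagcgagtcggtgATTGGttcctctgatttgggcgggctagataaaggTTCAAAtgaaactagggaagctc
Ube2c (chr2:164769679-164769928, plus strand): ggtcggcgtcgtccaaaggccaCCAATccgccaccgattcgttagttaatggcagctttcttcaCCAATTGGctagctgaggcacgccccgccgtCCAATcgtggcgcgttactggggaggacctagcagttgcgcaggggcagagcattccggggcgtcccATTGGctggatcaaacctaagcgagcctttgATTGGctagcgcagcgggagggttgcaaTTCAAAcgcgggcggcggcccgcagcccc
Ckap2l (chr2:129297213-129297462, minus strand): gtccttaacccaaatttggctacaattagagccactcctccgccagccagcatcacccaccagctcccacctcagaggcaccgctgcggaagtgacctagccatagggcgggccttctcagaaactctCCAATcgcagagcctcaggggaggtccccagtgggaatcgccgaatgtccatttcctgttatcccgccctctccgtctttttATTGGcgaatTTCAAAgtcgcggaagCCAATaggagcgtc
Cdk1, which encodes the mitotic kinase, was the G2/M member that also had a TTTCGCGC match. The S promoters of Mcm5 and Mcm6, subunits of the replicative helicase, held both forms of the E2F site and CCAAT, and neither held TTTGAA.
Mcm5 (chr8:75109259-75109508, plus strand): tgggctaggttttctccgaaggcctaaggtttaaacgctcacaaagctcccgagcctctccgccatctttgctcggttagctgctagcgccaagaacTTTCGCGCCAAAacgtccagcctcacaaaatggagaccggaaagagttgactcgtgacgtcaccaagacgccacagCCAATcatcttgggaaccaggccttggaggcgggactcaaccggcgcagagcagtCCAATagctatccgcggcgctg
Mcm6 (chr1:128359706-128359955, minus strand): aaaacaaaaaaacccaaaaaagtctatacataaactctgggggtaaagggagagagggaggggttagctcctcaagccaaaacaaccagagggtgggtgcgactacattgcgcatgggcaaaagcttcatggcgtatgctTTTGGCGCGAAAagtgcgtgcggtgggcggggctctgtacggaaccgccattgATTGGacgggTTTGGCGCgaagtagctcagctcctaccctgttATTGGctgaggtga

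Cells were counted as barcodes with 1000 or more UMIs (unique molecular identifiers, 1 per captured RNA molecule) and at most 30% of them from mitochondrial genes. This left 31982 of 35968 barcodes (88.9%), 8969, 13769 and 9244 in libraries 1, 2 and 3, with medians of 6389, 5801 and 6287.5 UMIs. Classes were gated by raw UMIs of 17 marker lists, none of which holds a member. A barcode joined a class with 3 or more of its markers and a share of the list at least 25 percentage points above every other class, which placed 87.3% of barcodes. In the classes described here the markers of the class were each found in 26.9% to 99.8% of its barcodes and in at most 28.7% of the barcodes outside it. Between libraries 110 barcode sequences were shared, touching 180 of the barcodes kept. Scrublet, run within each library, called 4.44% to 5.71% of barcodes doublets, which were kept and are given beside the results they touch. Intervals are exact 95% intervals and cover counting error only, since barcodes of 1 library are not replicates of a condition.

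A barcode was called cycling when 5 or more of the 39 members had a UMI. By this rule 2020 barcodes cycled, 6.32% of those kept (95% interval 6.05% to 6.59%), and the share was 6.42%, 6.58% and 5.82% in libraries 1, 2 and 3. The classes spread more widely, from 0 to 24.8%. Neural progenitors and neuroblasts, gated by Dlx1, Dlx2, Dlx5, Dlx6os1, Sp8, Sp9, Dcx and Sox11, had the highest share, 502 of 2027 barcodes or 24.8% (22.9% to 26.7%). T cells followed with 272 of 2317 (11.7%, 10.5% to 13.1%) and oligodendrocyte precursors with 49 of 459 (10.7%, 8.0% to 13.9%), and these neighbours overlapped in their intervals. Microglia held the most cycling barcodes, 550, but at a share of 4.82% (4.43% to 5.23%) of 11414. Endothelial cells reached 89 of 1091 (8.16%, 6.60% to 9.94%), and mature oligodendrocytes 73 of 9049 (0.807%, 0.633% to 1.01%).

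**Figure D1:**
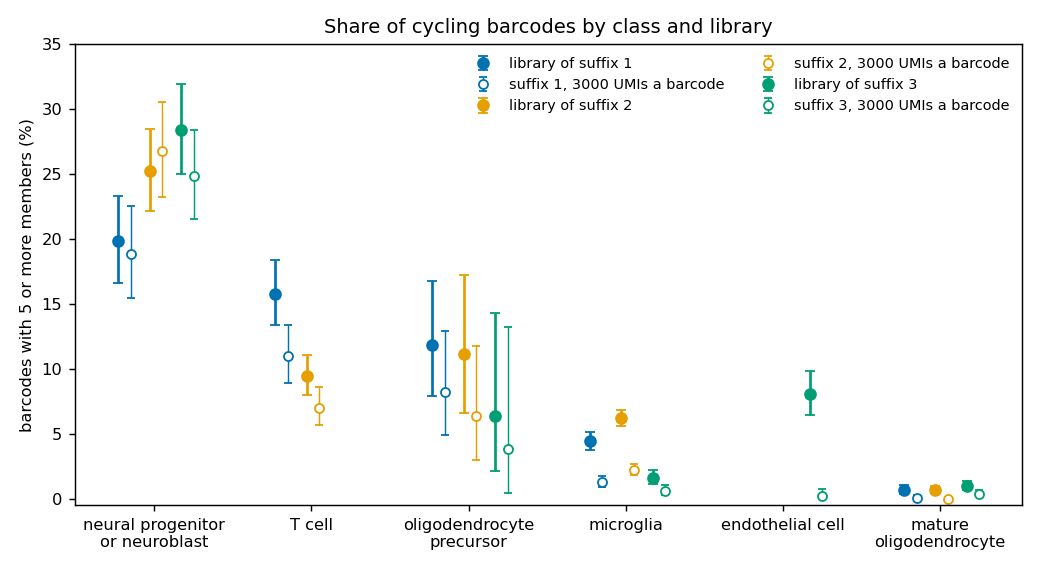
The plot gives the percent of barcodes with 5 or more members (vertical axis) for 6 classes in the library of each barcode suffix, with filled points at full depth, open points after thinning to 3000 UMIs a barcode and bars for exact 95% intervals. A library with under 50 barcodes of a class is left out. At full depth neural progenitors and neuroblasts lie between 19.8% and 28.4% in all 3 libraries, and the endothelial share drops from 8.04% to 0.215% on thinning.

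Within the neural class the share was 19.8% (114 of 575), 25.2% (192 of 761) and 28.4% (196 of 691) in libraries 1, 2 and 3. At full depth the interval of library 1, 16.6% to 23.3%, overlapped that of library 2, 22.2% to 28.5%. It did not overlap that of library 3, 25% to 31.9%. Values at equal depth follow below. T cells were nearly confined to libraries 1 and 2, where 15.7% (134 of 851) and 9.47% (137 of 1446) cycled with intervals apart, and library 3 held 20 T cells of which 1 cycled. Microglia cycled in 4.42% (148 of 3345), 6.21% (367 of 5908) and 1.62% (35 of 2161) of barcodes. At full depth library 3 was lowest and library 2 highest beyond counting error. Oligodendrocyte precursors gave 27 of 228 (11.8%), 17 of 153 (11.1%) and 5 of 78 (6.41%), which overlapped. Of the endothelial barcodes 1069 lay in library 3, as did 86 of the 89 cycling ones. NK cells, cytotoxic lymphocytes, cycled in 20 of 187 barcodes of library 1 (10.7%) and 1 of 79 of library 2 (1.27%). No barcode of mural cells (0 of 191), of monocytes or dendritic cells (0 of 34) or of fibroblasts (0 of 23) passed. Taking 3 counts as the limit that a count of 0 allows, these shares could be up to 1.57%, 8.82% and 13%, and the exact 95% intervals reached 1.91%, 10.3% and 14.8%.

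The call counts detected genes, so it moves with depth, and cycling barcodes were the deeper ones. Cycling neural barcodes had a median of 9900 UMIs against 4334 in the rest of the class, cycling T cells 9210.5 against 4610, cycling microglia 16710.5 against 7135.5 and cycling endothelial barcodes 23838 against 5531. Each barcode was therefore thinned to 3000 UMIs, leaving out 323 neural, 238 T cell, 60 precursor, 1511 microglial, 148 endothelial and 1068 mature oligodendrocyte barcodes that were shallower. The neural share was then 23.8%, where the same barcodes gave 28.8% unthinned. In libraries 1, 2 and 3 it was 18.8% (15.4% to 22.6%), 26.8% (23.2% to 30.5%) and 24.8% (21.5% to 28.4%). Library 1 was then apart from library 2 but overlapped library 3. T cells fell from 12.8% to 8.56% and oligodendrocyte precursors from 11.8% to 7.02%. Microglia fell from 5.38% to 1.65%, mature oligodendrocytes from 0.890% to 0.163% and endothelial cells from 9.44% to 0.212%. By library the thinned microglial share was 1.31% (0.922% to 1.80%), 2.21% (1.83% to 2.65%) and 0.587% (0.293% to 1.05%). Library 2 stayed highest, while libraries 1 and 3 overlapped. The order of the neural, T cell, precursor, microglial and mature oligodendrocyte shares was the same as at full depth, while the endothelial share moved from above the microglial one to below it.

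The limit of 5 members cut the classes in different places. In the neural class 68 barcodes had 4 members and 37 had 5, while 285 had 20 or more. T cells had 106 with 4, 49 with 5 and 102 with 20 or more. In microglia 557 barcodes had 4, 193 had 5 and 102 had 20 or more, and 281 of the 550 cycling microglia had just 5 or 6. Endothelial cells had 80 with 4, 45 with 5 and 1 with 20 or more, and 58 of the 89 had 5 or 6. With 8 or more members required, 419 of the 502 cycling neural barcodes, 186 of 272 T cells, 33 of 49 precursors, 219 of 550 microglia, 24 of 73 mature oligodendrocytes and 18 of 89 endothelial barcodes still passed.

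**Figure D2:**
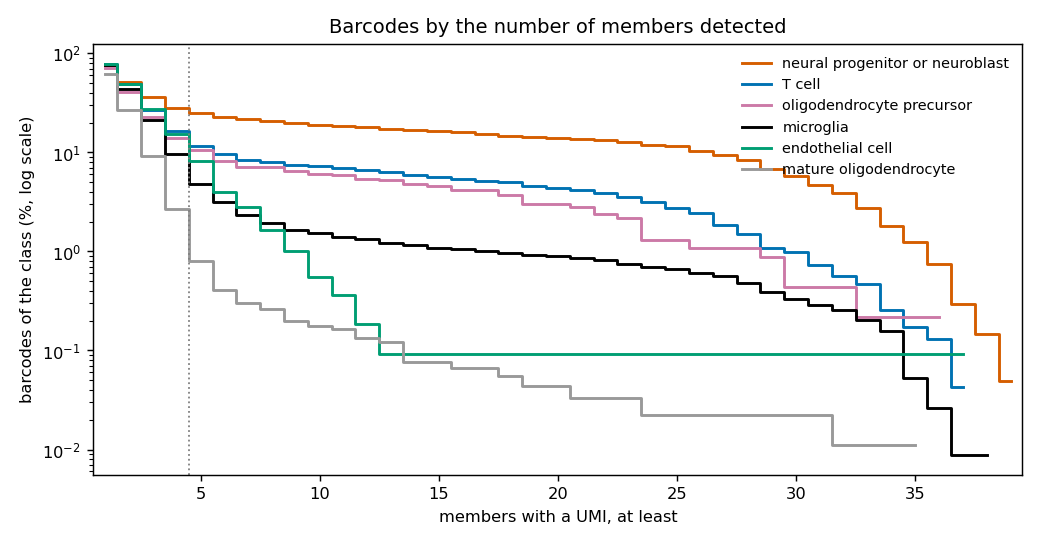
The plot gives, for each class, the percent of its barcodes (vertical axis, log scale) that hold at least the number of members on the horizontal axis, with a dotted line at the limit of 5 members. The neural, T cell, precursor and microglial lines run on as long tails past 20 members, whereas the endothelial line rests on 1 barcode from 13 members on.

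Over all barcodes of the class, cycling or not, each of the 39 members had its highest level (CPM, UMIs of the gene per 1000000 UMIs of the class) in the neural class among the 6 classes described, and for 38 the interval lay above those of the other 5, the exception being Ccne2, the S phase cyclin E2. By the same rule the neural class was highest for 9.01% of 21901 genes with a UMI in these classes and for 15.4% of 11803 genes with 10 CPM or more in any of them. To describe each member apart from the call it helps to make, a co-detection share was used, the percent of barcodes with a UMI of the member among those with 5 or more of the other 38 members. UMIs tag the 3' end of transcripts, so these shares carry no length correction and are compared between classes, not ranked between genes. Over the 23 G2/M members the median co-detection share was 53.9% in the neural class, 35.8% in T cells, 34.7% in precursors, 21.4% in microglia, 8.5% in mature oligodendrocytes and 3.4% in endothelial cells. Over the 16 S members it was 50.7%, 40.9%, 29.2%, 28.1%, 20.5% and 17.5% in the same order. In the rest of each class, with fewer than 5 other members, the median stayed between 0.5% and 0.9% for G2/M and between 2.1% and 5.0% for S members. After thinning to 3000 UMIs the G2/M medians were 39.4% in the neural class, 22.7% in T cells, 40.7% in precursors and 23.1% in microglia. The S medians were 25.7%, 24.2%, 18.2% and 15.6% in that order. Among these classes the G2/M order thus changed with depth and the S order did not. Thinned mature oligodendrocytes left at most 13 barcodes and endothelial cells at most 2. The shares of single members below are at full depth.

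**Figure D3:**
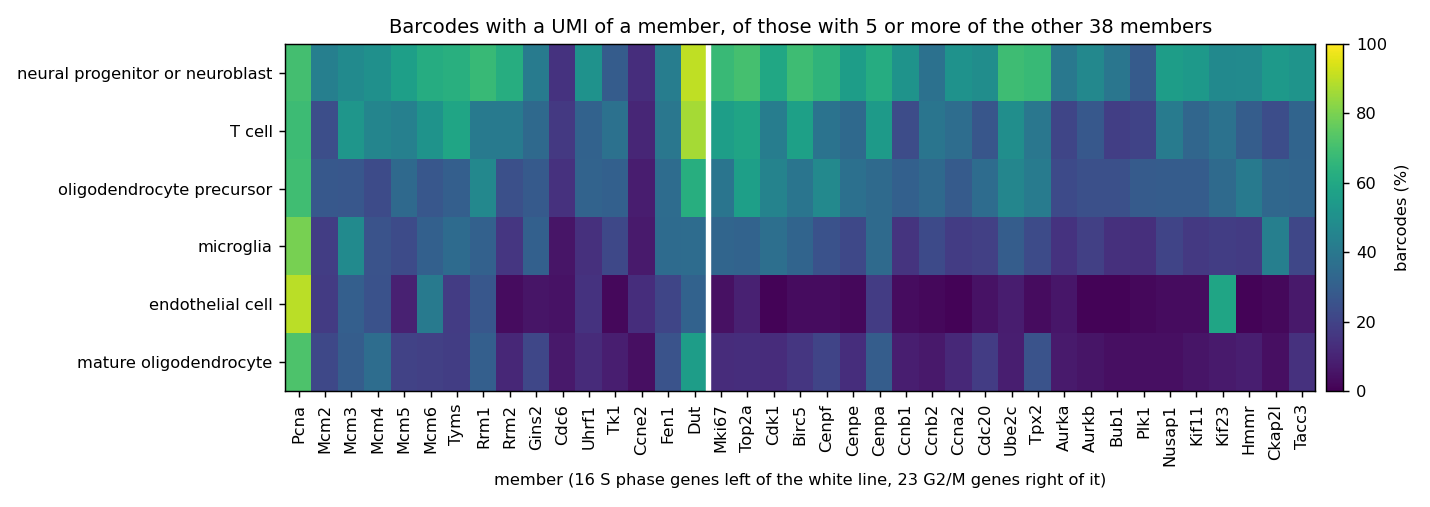
The heat map gives, for 6 classes (rows) and 39 members (columns, 16 S members left of the white line and 23 G2/M members right of it), the co-detection share in percent. In the neural row 24 members reach 50% or more, and the endothelial row is dark over the G2/M members apart from Kif23 at 58.9%.

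Among the members for replication, the helicase subunits Mcm2 to Mcm6 were co-detected in 43.0% to 62.0% of neural, 24.2% to 52.7% of T cell and 18.1% to 47.9% of microglial barcodes. Microglia stood out at Mcm3, at 47.9% with 13.5% in the rest of the class, where the other classes had 0.73% to 8.57%. Cdc6, the loader of the helicase, and Gins2, a subunit of the GINS complex that joins it, were found in 14.7% and 41.7% of neural, 16.5% and 34.1% of T cell and 5.8% and 30.7% of microglial barcodes. Pcna, the sliding clamp of DNA polymerase, was common outside the cycling barcodes too, at 70.1% in the neural class against 22.6% in its rest, 79.4% against 48.8% in microglia and 89.6% against 49.6% in endothelial cells. Fen1, the flap endonuclease of lagging strand synthesis, lay between 20.7% and 42.4% in the 6 classes, and Uhrf1, which reads hemimethylated DNA and guides DNMT1, between 12.3% and 51.0%.

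The members for nucleotide supply set the classes apart. Dut, which encodes dUTPase, was co-detected in 90.5% of neural and 86.7% of T cell barcodes, with 26.6% in the rest of each class. In microglia it reached 35.3%, with 5.53% in the rest. Rrm2, the regulated subunit of ribonucleotide reductase, was found in 62.3% of neural, 40.7% of T cell, 24.5% of precursor and 16% of microglial barcodes, whereas Rrm1, the large subunit, was at 67.3%, 41.0%, 46.7% and 31.0%. Tyms, thymidylate synthase, was at 63.2%, 58.9%, 30.2% and 34.9%. Tk1, thymidine kinase, was at 37.3% in T cells and 29.1% in the neural class, and Cdc6, Mcm3 and Ccnb2 were the other members with the higher share in T cells.

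Among the G2/M members, Mki67, the gene of the Ki-67 protein that coats mitotic chromosomes, was co-detected in 67.6% of neural, 56.1% of T cell, 38.8% of precursor and 32.8% of microglial barcodes, with 0.85% to 3.02% in the rest of these classes. Top2a, topoisomerase II alpha, followed at 70.6%, 58.2%, 56.2% and 31.9%. Its share in the rest was 8.51% in T cells and 1.70% to 2.37% in the other 3 classes. Cdk1 was at 59.8%, 42.5%, 44.9% and 36.5%. Ccnb1, the main mitotic cyclin, was at 51.2%, 23.2%, 30.6% and 15%, while its relative Ccnb2 was at 37.3%, 39%, 34.0% and 22.5%, with T cells level with the neural class. Cdc20 and Ube2c, activator and ubiquitin carrier of the anaphase-promoting complex, were at 49.2% and 68.9% in the neural class and at 19.1% and 29.4% in microglia. The kinases Aurka, Aurkb, Bub1 and Plk1 lay between 28.9% and 46.6% in the neural class, 18.4% and 27.6% in T cells and 13.6% and 18.9% in microglia. In endothelial cells 21 of the 23 G2/M members were at or under 10%, Cdk1 among them at 1.1%, and the others were Kif23 at 58.9% and Cenpa, the centromeric histone, at 17.9%.

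Cycling barcodes were next described by the balance of the phases, the share of S members among all member UMIs. Oligodendrocyte precursors had 22.3% (20.6% to 24.0%), the neural class 26.1% (25.7% to 26.5%), microglia 35.7% (35% to 36.4%) and T cells 38.4% (37.6% to 39.2%). These intervals count UMIs, many of which come from the same barcodes, and so are too narrow. In libraries 1, 2 and 3 the neural share was 25.2%, 28.8% and 24.6%, the microglial share 38.5%, 35.8% and 26.9%, and the T cell share of libraries 1 and 2 was 42.0% and 34.6%. T cells and microglia thus overlapped across libraries, and the neural share lay below both in libraries 1 and 2. Precursors spread from 20.3% to 40.2% and 7.57%, the last from 5 barcodes. Mature oligodendrocytes were at 49.7% and endothelial cells at 73.9%. With 8 or more members the microglial share was 30.3% and the T cell share 36.9%.

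By barcode, 69.7% of cycling neural barcodes (65.5% to 73.7%) and 61.4% of cycling T cells (55.3% to 67.2%) had 3 or more members of each phase. In microglia and precursors this was 36.7% (32.7% to 40.9%) and 36.7% (23.4% to 51.7%), and in endothelial cells 13.5% (7.17% to 22.4%). Barcodes with 3 or more S members and at most 1 G2/M member made up 14.3% of the neural, 18.4% of the T cell, 25.5% of the microglial, 32.7% of the precursor and 43.8% of the endothelial cycling barcodes. The reverse, 3 or more G2/M members and at most 1 S member, was found in 5.0%, 2.6%, 5.1%, 12.2% and 1.1%. The median cycling barcode held 8 S and 14 G2/M members in the neural class, 6 and 7 in T cells, 5 and 5 in precursors and 4 and 3 in microglia. With 8 or more members required, 82.6% of neural barcodes (78.6% to 86.1%) had 3 or more members of each phase. In T cells this was 87.6% (82% to 92%) and in microglia 76.3% (70.1% to 81.7%). The neural interval then overlapped both of these. Precursors were at 51.5% (33.5% to 69.2%) and endothelial cells at 50%.

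**Figure D4:**
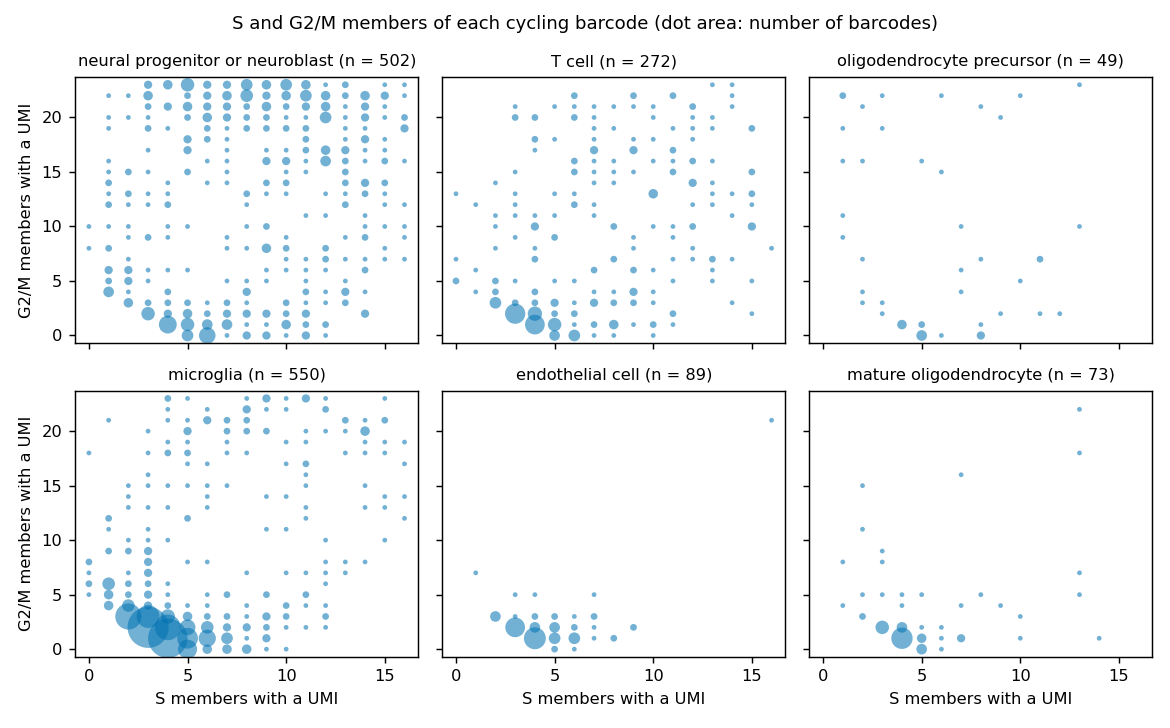
Each panel plots the S members (horizontal axis, of 16) against the G2/M members (vertical axis, of 23) found in the cycling barcodes of 1 class, with dot area for the number of barcodes. The neural and T cell panels fill the upper part, the microglial panel has most barcodes near the limit and a band above it, and the endothelial panel has 1 barcode with over 20 G2/M members.

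Differences between classes among cycling barcodes were taken as ratios of CPM, with 10 added to each level, over all genes with 10 CPM or more in either class, and a ratio of 2 or more was counted. Between neural barcodes and microglia 30 of 39 members were higher in the neural class and 0 in microglia, where 35.2% and 13.9% of 9129 genes passed in these directions. The median ratio was 3.71 over the members and 1.61 over all genes. Of the 30, 21 were G2/M and 9 S members. Cenpf, a protein of the outer centromere, had the largest ratio, 9.15. Its level in libraries 1, 2 and 3 was 720.8, 671.6 and 726.2 CPM in the neural class and 46.8, 68.0 and 208.5 CPM in microglia, with no overlap. Dut followed at 8.35, with 701.4, 743.4 and 624.1 CPM against 71.6, 69.7 and 137.3 CPM. Ccnb1 (7.49), Ube2c (7.99), Rrm2 (6.96) and Top2a (6.95) also stood high. Tk1 had the smallest ratio, 1.52. These sizes moved with the call. With 8 or more members required, 26 members passed, against 29.0% of 9089 genes. The median ratio was 2.28 over the members and 1.51 over all genes. Cenpf then stood at 4.77, Dut at 4.74, and Tk1 turned to the microglial side at 0.86. Within libraries 1, 2 and 3 there were 31, 33 and 26 members past the limit. The median ratio there was 3.99, 3.69 and 2.28 over the members and 1.64, 1.63 and 1.21 over all genes. The share of all genes past the limit was not computed by library. The 35 cycling microglia of library 3 had the higher microglial levels of Cenpf and Dut.

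T cells stood closer to microglia. There 20 of 39 members were higher in T cells and 0 in microglia, against 12.7% and 14.2% of 7709 genes, with a median ratio of 2.06 over the members and 1.15 over all genes. Dut had the largest ratio, 7.0, with 562.9 and 582.2 CPM in the T cells of libraries 1 and 2 against 71.6 and 69.7 CPM in microglia. Birc5, which encodes survivin of the chromosomal passenger complex, was at 3.41. Ckap2l, a spindle protein, went the other way with a ratio of 0.51, from 34.4 CPM in T cells to 76.6 CPM in microglia. It also had a UMI in 15.7% of microglia that did not cycle, against 0.489% of such T cells, as described below. The count turned on the call: with 8 or more members required, the members past the limit were 2, both of S phase, in T cells and 1, Ckap2l, in microglia. By this rule 9.72% and 14.3% of 7828 genes passed in these directions, so the members passed no more often than other genes. The median ratio was then 1.33 over the members and 1.06 over all genes, with Dut at 4.33 and Birc5 at 1.94.

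Between the neural class and T cells the phases parted. Of the members 15 were higher in the neural class and 0 in T cells, against 27.8% and 11.6% of 8932 genes, and 14 of the 15 were G2/M members. The median ratio was 2.34 over G2/M and 1.17 over S members, with 1.46 over all genes. Cenpf (4.77), Ccnb1 (4.73), Ckap2l (3.84) and Tpx2 (3.53), which targets Aurora A to the spindle, led, and Rrm2 (2.40) was the S member. Ccnb1 stood at 169.8, 175.6 and 313.6 CPM in neural libraries 1, 2 and 3 and at 39.8 and 42.8 CPM in T cell libraries 1 and 2. Its relative Ccnb2 was higher in T cells, with 70.7, 76.9 and 95.9 CPM in the 3 neural libraries against 106.5 and 141.7 CPM. Tk1 was likewise higher in T cells, 62.3 and 77.5 CPM against 42.4, 61.2 and 49.7 CPM over the 3 neural libraries, and for neither gene did the libraries of the classes overlap. Both ratios, 0.71 and 0.78, stayed within the limit of 2.

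**Figure D5:**
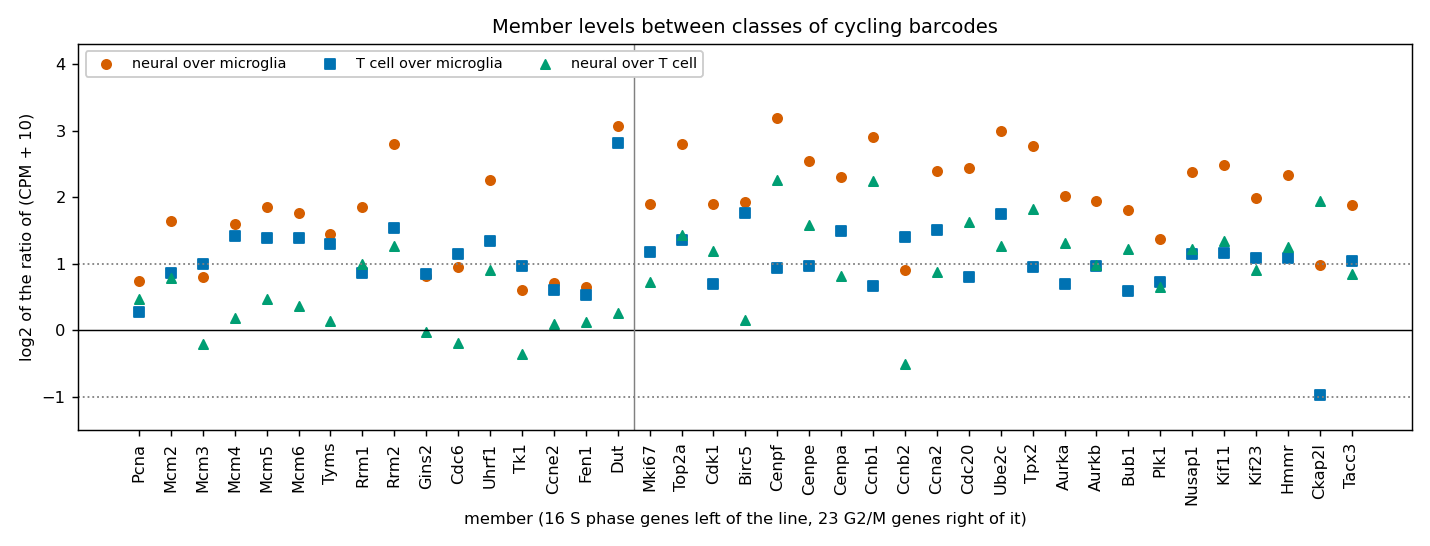
The plot gives, for each member (horizontal axis, 16 S members left of the line and 23 G2/M members right of it), the log2 of the ratio of (CPM + 10) between cycling barcodes of a pair of classes, with dotted lines at a ratio of 2 either way. Neural over T cell ratios lie near 0 for most S members and above 1 for 14 G2/M members, and Ckap2l in T cells over microglia is the lowest point at a ratio of 0.51.

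Within the neural class the share was also read by a gene used neither for the gate nor for the call. Of barcodes with a UMI of Egfr, the receptor carried by activated progenitors, 87 of 109 cycled (79.8%, 71.1% to 86.9%), and 89.5%, 67.6% and 84.9% did in libraries 1, 2 and 3. Without an Egfr UMI 415 of 1918 did (21.6%, 19.8% to 23.5%), with 17.4%, 23.1% and 23.7%, so the sets were apart in every library. The Egfr set was deeper, with a median of 12673 against 4837 UMIs. Thinned to 3000 UMIs the member call gave 76.6% against 20.2%. Dcx, a microtubule protein of neuroblasts and a marker of the gate itself, gave 24.2% (22.3% to 26.3%) of 1819 barcodes with it and 29.3% (23.2% to 36%) of 208 without it, and these intervals overlapped. The set without Dcx was shallower, with a median of 3999.5 against 5077 UMIs. Thinned to 3000 UMIs the call gave 22.7% of 1566 barcodes with Dcx and 35.5% of 138 without it. Intervals were not computed for these thinned shares.

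T cells were split by their coreceptors. With Cd8a or Cd8b1 and no Cd4, 189 of 1348 barcodes cycled (14.0%, 12.2% to 16%), and with Cd4 and neither Cd8 gene 33 of 222 (14.9%, 10.5% to 20.2%), so the sets overlapped. In libraries 1 and 2 the Cd8 share was 19.6% and 11.6% and the Cd4 share 23.1% and 7.27%. Barcodes with none of the 3 genes cycled in 46 of 739 cases (6.22%, 4.59% to 8.22%) at a median of 4244 UMIs against 5039.5 in the Cd8 set.

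Other cell cycle genes were read from a list of 64, in 9 groups, that the call does not use. In cycling against other barcodes of the same class, 55 were higher by intervals that did not overlap in the neural class, 52 in T cells, 51 in microglia, 43 in precursors, 42 in mature oligodendrocytes and 12 in endothelial cells. The numbers that were lower were 5, 3, 3, 1, 0 and 4. Of all genes with a UMI in the class, 13.3%, 14.8%, 15.7%, 4.43%, 14.6% and 6.7% were higher by this rule in the same order, and 18.5%, 6.27%, 11.8%, 2.86%, 3.08% and 4.92% were lower. Among genes with 10 CPM or more in cycling or other barcodes, a set chosen after these values were seen, 53 of 60, 49 of 56, 35 of 43, 43 of 60, 28 of 39 and 10 of 35 genes of the list were higher, against 23.9%, 31.1%, 29.9%, 6.85%, 23.3% and 11.4% of all genes. All 12 genes of G1/S and licensing were higher in the neural class, T cells and microglia. In precursors 10 were, in mature oligodendrocytes 10 and in endothelial cells 1. Gmnn, geminin, which blocks relicensing after S phase, had ratios of 8.11, 4.68 and 2.67 in the first 3 classes. All 8 condensin and cohesin genes were higher in the same 3 classes, with 7 in precursors, 7 in mature oligodendrocytes and 1 in endothelial cells. The spindle checkpoint genes were higher in 9, 8 and 7 of 9 cases in the neural class, T cells and microglia. In precursors 7 were, in mature oligodendrocytes 5 and in endothelial cells 0. Foxm1, a factor of the mitotic genes, stood at 54.3 CPM in neural, 18.9 CPM in T cell and 7.49 CPM in microglial cycling barcodes, against 0.433, 0.102 and 0.380 CPM in the rest of each class. Higher and lower rest here on counting intervals, not on replicates.

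The D cyclins, which couple growth signals to the cell cycle, differed by class. Ccnd2 was at 3009 CPM in cycling neural barcodes, against 112 CPM in T cells (a ratio of 24.8) and 95.4 CPM in microglia (28.7). By library it was 2544, 2766 and 3484 CPM in the neural class. Ccnd1 was at 700.3 CPM in cycling precursors, with 675.9, 669.5 and 946.7 CPM by library, and at 9.89 CPM in the neural class and 6.06 CPM in T cells. Its level in cycling microglia is not given here, so these values do not set precursors apart from microglia. Ccnd3 was at 104 CPM in T cells and 117 CPM in precursors, against 31.7 CPM in the neural class and 19.7 CPM in microglia. Their partner Cdk4 was at 747.4 CPM in the neural class, 131 CPM in T cells and 86.3 CPM in microglia. These are levels of cycling barcodes and need not be particular to them. Of the 5 D cyclin and kinase genes 4, 3, 4 and 2 were higher than in other barcodes of the neural class, T cells, microglia and precursors. Those lower were 0, 1, 0 and 0. The median ratios were 1.78, 1.26, 1.31 and 1.21, and 1, 1, 1 and 0 genes reached a ratio of 2.

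The CDK inhibitors did not move together. Cdkn2c, which encodes p18, was higher in cycling than in other barcodes of the neural class (107 against 26.1 CPM), T cells (38.1 against 10.8), microglia (36.4 against 8.95) and precursors (211 against 27.5). Cdkn1b, which encodes p27, was lower in cycling T cells (103 against 151 CPM) and neural barcodes (321 against 356), and the ratio of its neural to its microglial level was 6.92. Cdkn1a, p21, stood at 602 CPM in cycling and 543 CPM in other microglia, at 104 and 102 CPM in T cells and at 92.8 and 122 CPM in the neural class. In precursors it was 150 against 33.0 CPM. Of the MYC family Myc was at 44.1 CPM in cycling T cells and 6.53 CPM in the neural class, and Mycn and Mycl, at 33.2 and 31.0 CPM in the neural class, had no UMI in cycling T cells. Of these 3 genes 0 were higher and 2 lower in cycling than in other neural barcodes. All 3 overlapped in T cells and in precursors. In microglia 1 was higher and 1 lower, and 2 were higher in mature oligodendrocytes and 1 in endothelial cells.

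Of the 7 replication histone and chromatin genes, which are needed to package new DNA, some had high ratios of cycling to other barcodes in T cells. These were 23.7 for Hist1h1b, 22.1 for Hist1h2ae and 21.9 for Hist1h2ap. The same genes had 10.2, 4.68 and 2.74 in the neural class and 10.9, 5.20 and 6.08 in microglia. The median ratio of the group was 6.21 in T cells, 4.68 in the neural class and 2.68 in microglia. Hist1h1b differed between libraries in the neural class, at 1352, 1729 and 246 CPM in libraries 1, 2 and 3, while Hmgb2, a chromatin protein, was at 4791, 4115 and 4215 CPM. The cause of this difference was not tested.

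Genes outside the list of members were ranked by their smallest ratio of cycling to other barcodes over the 5 classes with 50 or more cycling barcodes, among 4436 genes with 10 CPM or more in each. Pclaf, a partner of PCNA, came first, with ratios of 73.8 in the neural class, 32.0 in T cells, 9.36 in microglia, 8.37 in mature oligodendrocytes and 3.02 in endothelial cells. It was followed by Hist1h2ap, Lgals1, Hmgn2, Lmnb1, Mdk, Ezh2, Smc4, Rgs16 and Ssrp1, with smallest ratios from 2.23 down to 1.34. Restricted after the values were seen to the neural class, microglia and T cells, the ranking named Hist1h1b, Pclaf, Cdca8, Prc1, Cdca3, Cks1b, Spc24, Hist1h2ae, Smc2 and Racgap1, with smallest ratios from 10.2 to 3.73. The rankings shared 1 gene, Pclaf, and the second held Cdca8 of the chromosomal passenger complex, Prc1 and Racgap1 of the central spindle and Spc24 of the kinetochore.

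Single members were also found where few others were. In microglia that did not cycle, Ckap2l had a UMI in 15.7% of 10864 barcodes, against 0.0998% to 1.57% in the other 5 classes. Ckap2l (chr2:129268210-129297212, GRCm38, minus strand) starts 2397 bases beyond the annotated end of Il1a (chr2:129299610-129309972, minus strand), the gene of the cytokine interleukin 1 alpha. Microglia without an Il1a UMI had Ckap2l in 3.79% of barcodes, those with 1 to 4 in 12.3% and those with 5 or more in 26.7%. The sets differed in depth, with medians of 4443, 5924 and 10372 UMIs, and after thinning to 3000 UMIs they gave 2.24%, 7.13% and 11.3%. The part of reads from the neighbouring gene in these values was not tested. In endothelial cells Kif23, the motor of the central spindle, had a UMI in 18.6% of 1002 barcodes that did not cycle, against 0.488% to 3.52% in the other classes. In T cells with fewer than 5 other members, 1 of the 23 G2/M members had a UMI in 10% or more of barcodes. This member was neither Ckap2l nor Kif23 and was not among those left out next. With Pcna, Dut, Ckap2l and Kif23 left out of the call, a choice made after these values were seen, the endothelial share fell to 2.57% and the microglial share to 2.72%, and the neural share was 22.6%.

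Cycling barcodes of some classes held markers of other classes. In mature oligodendrocytes 6 of the 8 neural markers were higher in cycling than in other barcodes, with a summed level of 442 CPM (216 to 637 over the libraries) against 13.7 CPM (8.74 to 17.7), and Sp8 was at 0. Without library 3 the summed level in cycling barcodes was 262 CPM. There Sox11 had a UMI in 28 of 73 cycling barcodes, Ccnd2 was at 559.7 against 5.45 CPM, and 28.8% of the cycling barcodes were called doublets against 1.47% of the rest. Of the T cell markers 5 of 7 were higher in the same barcodes (145 against 10.6 CPM), with 429, 157 and 1.85 CPM in libraries 1, 2 and 3, and the sum was 60.1 CPM without library 1 and 278 CPM without library 3. Other lists had higher markers there too. These were endothelial (5 of 8, 112 against 26.3 CPM), mature neuron (3 of 6, 133 against 7.99), astrocyte (3 of 8, 128 against 74.6) and monocyte or dendritic markers (3 of 8, 60.5 against 7.04). In these lists 0 markers were lower. In oligodendrocyte precursors 12.2% of cycling and 3.66% of other barcodes were called doublets. Their T cell markers were higher in 2 of 7 cases, with a sum of 115 against 21.7 CPM that lay in library 1: without it the sum was 5.37 against 24.6 CPM. In microglia 5 of 8 neural markers were higher, at 81.0 CPM (61.0 to 385 over the libraries) against 14.9 CPM (14.1 to 18.4), and the doublet calls were 8.36% of cycling against 2.97% of other barcodes, reaching 34.3% of the 35 cycling microglia of library 3. T cell and precursor markers were each higher in 4 of 7 cases in microglia and lower in 0, at 38.3 against 22.2 CPM and 33.4 against 15.3 CPM. In endothelial cells 2 of 6 neutrophil markers were higher, S100a8 and S100a9, but 1 barcode held 4435 of the 4442 S100a8 UMIs, and Retnlg and Mmp9 were at 0. In T cells 3 of 6 mature neuron markers were higher and 0 lower (76.1 against 7.84 CPM), but 1 barcode held 176 of the 180 Scg2 UMIs. The neural class and T cells had doublet calls of 1.0% and 1.47% in cycling and 1.57% and 1.03% in other barcodes. Of barcodes that joined no class 433 of 4070 cycled (10.6%), and 31.6% of these were called doublets. The part of mixed barcodes in the oligodendrocyte, precursor, microglial and unclassed shares was not tested beyond leaving out the called doublets, after which the shares were 0.585% in mature oligodendrocytes, 9.82% in precursors, 4.56% in microglia and 24.9% in the neural class.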

How the data were processed

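The deposited file is a matrix of UMI counts of genes by barcodes, which the authors made with Cell Ranger 3.1.0 and STAR on mm10 per the submitters' notes and pooled over 3 libraries, down-sampling reads across them. It was used as deposited. Libraries were told apart by barcode suffix, which is not paired with a condition, so no test was run. The members and lists were chosen with earlier results of these data known. Barcodes, classes and cycling calls followed the limits given with the results, and CPM are UMIs per 1000000 UMIs of a group. Intervals are Clopper-Pearson for shares and exact Poisson for CPM at 95%, and the floor is 3 counts. All 39 members enter the counts and medians and are shown in the plots by member. Cenpe, Nusap1, Kif11, Hmmr, Tacc3 and Ccna2 are not described singly in the text. The 64 other cell cycle genes are given by group, with values for those with large ratios between classes, and D cyclins, CDK inhibitors and the splits by Egfr, Dcx, Cd4 and Cd8 were chosen after values were seen. The 10 genes that are no member are those with the largest smallest ratio over the classes with 50 or more cycling barcodes. Doublets were called with Scrublet in scanpy 1.11.5 (expected rate 10%), where 45.0% to 49.7% of simulated doublets lay above the limit. NumPy 2.4.6, SciPy 1.17.1 and pandas 2.3.3 (Python 3.11.15) were used. Gates, calls and ratios were tested on simulated neural and microglial barcodes, with the same high level of each member in cycling barcodes and a low one in others. Such a test does not cover the lower levels of cycling microglia. Nor does it cover members that were common outside cycling barcodes, such as Pcna. Counting did not separate 10 members from exons of a gene on the opposite strand unless strand was used, and no source at hand says so. Gene positions are from GENCODE on GRCm38, which holds 99.6% of the matrix's genes. A split by another gene is not reported here.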

Additional observations from a re-analysis of the deposited data

How the results depend on the processing

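With 16 settings for the shares, including the one reported, the neural class had the highest and mature oligodendrocytes the lowest share among the neural class, T cells, oligodendrocyte precursors, microglia and mature oligodendrocytes in all 16. T cells and precursors changed places in thinning to 1000 UMIs and without library 1. Of 144 values under an alternative, 64 stayed within the 95% interval of the reported share or within 1.5 times the reported count, and 80 did not. No paired analysis was possible because each condition has 1 library.

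Shares are given in the order all barcodes, microglia, neural class, T cells, precursors and mature oligodendrocytes. With 3 or more members they were 19.5%, 21.2%, 36.7%, 26.6%, 22.9% and 9.26%. With 8 or more they were 3.64%, 1.92%, 20.7%, 8.03%, 7.19% and 0.265%. With 3 or more G2/M members they were 4.13%, 2.90%, 19.7%, 8.63%, 7.19% and 0.298%. Thinned to 3000 UMIs they were 3.75%, 1.65%, 23.8%, 8.56%, 7.02% and 0.163%. Thinned to 1000 UMIs they were 2.01%, 0.596%, 15%, 3.84%, 4.36% and 0.0774%. Within the mean plus or minus 2 SD of UMIs and genes, the limits of the study's methods, they were 4.55%, 3.14%, 21.6%, 10.8%, 9.63% and 0.488%. Without Pcna, Dut, Ckap2l and Kif23 they were 4.37%, 2.72%, 22.6%, 9.02%, 7.63% and 0.365%, and 2.57% in endothelial cells. The share of all barcodes was 5.92% from 500 UMIs, 6.99% with at most 10% mitochondrial UMIs and 5.91% without called doublets. Mature oligodendrocytes moved to 0.585% without called doublets and to 1.23% with no margin in the gate. With each library left out in turn the range was 3.32% to 5.57% in microglia, 22.9% to 26.7% in the neural class and 9.41% to 15.5% in T cells.

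The S share of member UMIs, in the order neural class, microglia, T cells and precursors, was 27.1%, 47.4%, 41.1% and 27.2% with 3 or more members, 25.5%, 30.3%, 36.9% and 19.6% with 8 or more, and 27.0%, 28.9%, 36.1% and 19.1% after thinning to 3000 UMIs. Within 2 SD it was 27.3%, 36.8% and 27.1% in the neural class, microglia and precursors, and with no margin in the gate 27.9% and 36.4% in the neural class and microglia. With each library left out it ranged from 24.8% to 27.2% in the neural class, 34.8% to 36.5% in microglia, 34.6% to 42.0% in T cells and 18.2% to 26.6% in precursors.

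The count of members past the limit between T cells and microglia was 37 with a ratio of 1.5 and 1 CPM added, and 2 with 8 or more members. Between the neural class and T cells it was 25 with the ratio of 1.5. The share of all genes that passed was not computed for the ratio of 1.5. The counts of 37 and 25 therefore have no background beside them and are no result about the members. The settings with 8 or more members for ratios, without the 4 members, and with 3 classes in the ranking were chosen after seeing the data. The causes of these moves were not tested.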
